A study of Mus musculus with 22 samples.

Results

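Counts of 10 genes that mark the subfields of the hippocampus were followed in RNA-Seq libraries prepared from hippocampus (HIP) and entorhinal cortex (EC) tissue of adult male mice. The genes were named by the subfield they mark: Prox1, Dsp, C1ql2 and Lct for the dentate gyrus, Wfs1, Fibcd1 and Mpped1 for CA1, Amigo2 for CA2, and Bok and Iyd for CA3. Earlier results of these data were known when they were chosen. They were found by symbol among the 55385 genes of the count table, and all 10 had a row. The 22 libraries came from 11 animals, 5 wild-type (wt) littermates and 6 Ts66Yah mice, each giving 1 HIP and 1 EC library. Ts66Yah mice carry a minichromosome with an additional copy of the distal part of mouse chromosome 16 (Mmu16), which is homologous to human chromosome 21. The line came from 1 founder edited with CRISPR/Cas9 in the Ts65Dn line, so that the centromeric Mmu17 part of the parental minichromosome was lost, and both genotypes were kept on the mixed B6C3B background. None of the 10 genes lies on Mmu16 or Mmu17, and every one is present in the usual number of copies in both genotypes.

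The hippocampus is built as a chain of subfields with different principal neurons. Granule cells of the dentate gyrus project through mossy fibres to CA3 pyramidal cells, which project to CA1, and CA2 lies between the CA fields. The EC gives the main cortical input to the dentate gyrus and receives output of CA1. Because a dissected hippocampus pools all subfields, the ratio of dentate to CA markers is taken here as a measure of subfield balance. Whether this ratio follows the amount of RNA from each subfield was not tested. Fewer cells of a type and less RNA per cell cannot be told apart in such bulk samples.

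All 10 are protein-coding genes, and their positions are those of the GRCm38 annotation. The dentate genes were Prox1 (ENSMUSG00000010175) at chr1:190118035-190170714 on the minus strand, Dsp (ENSMUSG00000054889) at chr13:38151294-38198577 on the plus strand, C1ql2 (ENSMUSG00000036907) at chr1:120340582-120343174 on the plus strand and Lct (ENSMUSG00000026354) at chr1:128284756-128328318 on the minus strand. The CA1 genes were Wfs1 (ENSMUSG00000039474) at chr5:36966104-36989205 on the minus strand, Fibcd1 (ENSMUSG00000026841) at chr2:31813290-31846005 on the minus strand and Mpped1 (ENSMUSG00000041708) at chr15:83779467-83858494 on the plus strand. Amigo2 (ENSMUSG00000048218) was at chr15:97244125-97247287 on the minus strand marks CA2. The CA3 genes were Bok (ENSMUSG00000026278) at chr1:93685660-93695764 on the plus strand and Iyd (ENSMUSG00000019762) at chr10:3540240-3554877 on the plus strand.

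Between 25.9 and 50.1 M counts were assigned to genes in a library (median 34.7 M), and no pair of libraries within a group agreed within counting error. Levels are given as CPM, counts per 1000000 counts of the library, scaled with TMM factors over all 22 libraries. The genotype labels were checked with triplicated genes: Dyrk1a lay between 81.0 and 93.8 CPM in the wt HIP and between 123 and 131 CPM in the Ts66Yah HIP, and its EC groups were apart as well (81.4 to 104.0 against 132 to 152 CPM). The tissue labels held for a list of genes of neocortical layers, which holds none of the subfield markers. Their summed level was 215 to 285 CPM in the 11 HIP libraries and 532 to 782 CPM in the 11 EC libraries. The dentate genes had a summed level of 251 to 327 CPM in the HIP and 13.2 to 17.1 CPM in the EC. They are compared between the regions below, so they give no independent check of these labels. The EC libraries of the animals Ts66Yah 2 and Ts66Yah 4 stood apart from the other 9, as described with the EC data, and each genotype result is given with and without these animals where they change it. The animal numbers in the labels fell into a lower range (wt 2, wt 3, Ts66Yah 5 and Ts66Yah 6) and a higher range (wt 4, wt 5 and Ts66Yah 1 to Ts66Yah 4), with wt 1 outside both. What these ranges stand for is not given in the labels.

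By the ratio of the highest to the lowest HIP library, the dentate genes included the least and the most variable of the 10 genes. The 250 bases before the start of these 4 are therefore shown (RefSeq, GRCm38.p6, read 5′ to 3′ on the strand of the gene). Capitals mark 3 motifs searched on both strands: the E-box CANNTG bound by basic helix-loop-helix factors, the GC box GGGCGG bound by Sp factors, and the TATA box TATAAA. C1ql2 is at chr1:120340332-120340581 on the plus strand, Dsp at chr13:38151044-38151293 on the plus strand, Lct at chr1:128328319-128328568 on the minus strand, and Prox1 at chr1:190170828-190171077 on the minus strand.
C1ql2: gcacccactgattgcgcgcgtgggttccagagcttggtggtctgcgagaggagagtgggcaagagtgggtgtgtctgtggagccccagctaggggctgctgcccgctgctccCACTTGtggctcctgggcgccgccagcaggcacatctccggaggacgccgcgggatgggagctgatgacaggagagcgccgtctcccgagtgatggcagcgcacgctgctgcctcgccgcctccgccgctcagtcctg
Dsp: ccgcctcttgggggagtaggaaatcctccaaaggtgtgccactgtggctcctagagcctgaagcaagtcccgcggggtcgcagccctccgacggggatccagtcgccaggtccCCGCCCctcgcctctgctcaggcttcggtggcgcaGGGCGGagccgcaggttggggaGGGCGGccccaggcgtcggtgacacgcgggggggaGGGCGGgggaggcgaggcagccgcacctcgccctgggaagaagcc
Lct: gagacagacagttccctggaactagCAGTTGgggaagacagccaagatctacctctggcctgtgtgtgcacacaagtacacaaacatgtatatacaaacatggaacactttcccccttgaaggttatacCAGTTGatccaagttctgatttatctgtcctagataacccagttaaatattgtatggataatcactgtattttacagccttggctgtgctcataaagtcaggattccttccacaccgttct
Prox1: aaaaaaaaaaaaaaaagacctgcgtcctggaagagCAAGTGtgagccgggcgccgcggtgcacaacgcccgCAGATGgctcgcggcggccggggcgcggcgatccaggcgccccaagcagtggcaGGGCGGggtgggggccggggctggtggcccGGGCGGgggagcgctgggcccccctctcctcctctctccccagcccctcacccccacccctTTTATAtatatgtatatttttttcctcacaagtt

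No motif was found in all 4 windows. The window of C1ql2 held 1 E-box and none of the other motifs, that of Dsp 4 GC boxes, that of Lct 2 E-boxes, and that of Prox1 2 E-boxes, 2 GC boxes and 1 TATA box. Over all 32851 mouse promoters of that table, 66.2% of windows of this length held an E-box, 32.7% a GC box and 12.4% a TATA box. The window of Lct had a GC content of 42.8%, against 64.8% to 72.4% for the other genes. A match describes the letters only and was not tested as a site.

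All 10 genes were expressed in every HIP library. Per kilobase of annotated exon, the mean HIP level was highest for the CA1 genes Mpped1 (50.1 CPM per kb) and Wfs1 (49.0), followed by Fibcd1 (33.5), Bok (29.4), C1ql2 (17.9), Prox1 (14.2), Dsp (9.08), Lct (9.04), Amigo2 (8.74) and Iyd (4.31). Mpped1 and Wfs1, Fibcd1 and Bok, C1ql2 and Prox1, and the trio of Dsp, Lct and Amigo2 did not differ beyond the SD over the 11 libraries. The other neighbours in this order did.

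**Figure D1:**
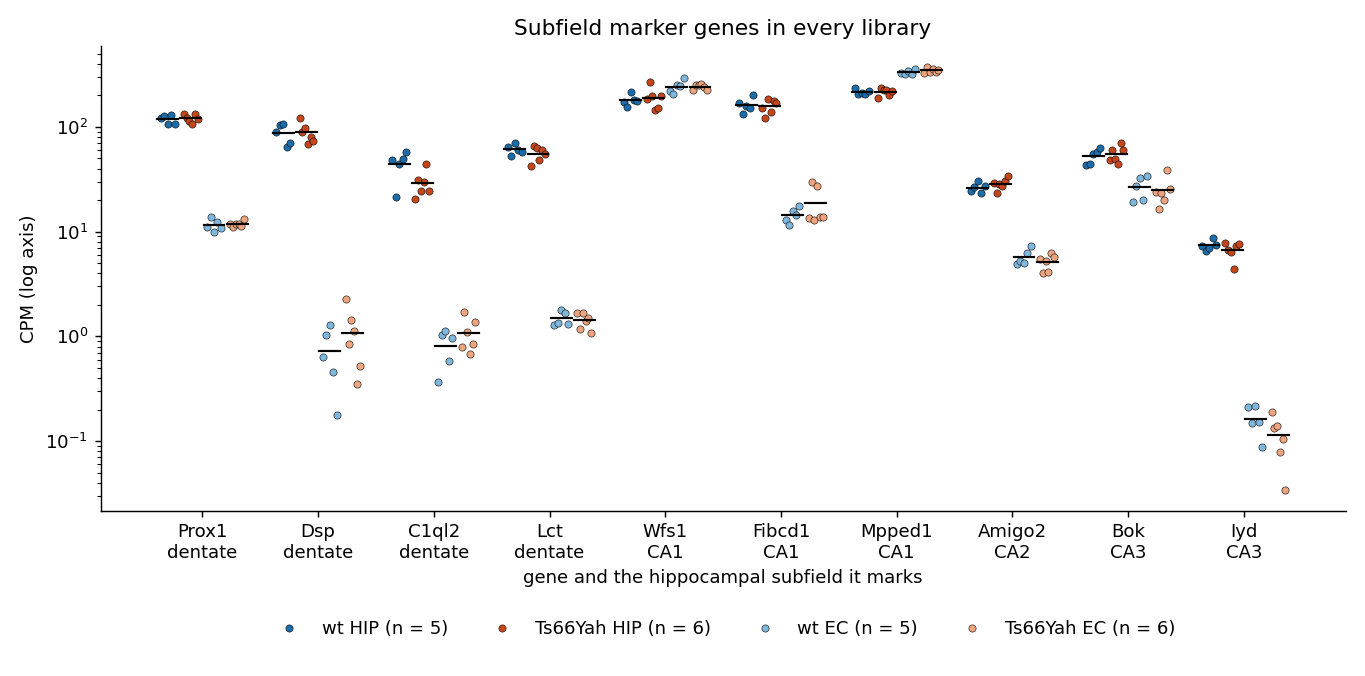
Level of the 10 genes in each of the 22 libraries, in CPM on a log axis, with points for libraries and a line for the mean of each group. The dentate genes, Fibcd1, Amigo2 and Iyd are lower in every EC library than in any HIP library, whereas Wfs1 and Mpped1 are at 203 CPM or more in every EC library.

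The first question was whether the subfield markers varied between HIP libraries, and whether genes of the same subfield varied together. The spread differed between the genes. The ratio of the highest to the lowest HIP library was 2.80 for C1ql2, 1.98 for Iyd, 1.89 for Dsp, 1.85 for Wfs1, 1.66 for Fibcd1 and Lct, 1.60 for Bok, 1.46 for Amigo2, 1.25 for Mpped1 and 1.24 for Prox1. The biological coefficient of variation fitted within genotypes by edgeR was 25.6% for C1ql2, 18.4% for Dsp, 12.6% for Lct and 8.47% for Prox1. Its median over the 18452 genes tested in the HIP was 0.116 (as a fraction). Among the 9995 of these genes that averaged 10 CPM or more, the median was 0.0818. The coefficient of Mpped1 was lower than that of Prox1, at 7.51%.

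Among the dentate genes, Prox1, the homeobox factor that sets granule cell identity, was the steadiest. It was at 121, 127, 107, 130 and 106 CPM in the 5 wt HIP libraries, and in the 6 Ts66Yah libraries it ran from 106 to 131 CPM with a median of 120.2 CPM. Both genotypes covered the same range.

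C1ql2, a secreted C1q-like protein of mossy fibre synapses, was the most variable. Its wt HIP libraries were at 47.8, 21.5, 43.8, 49.3 and 57.0 CPM. The Ts66Yah libraries had a lowest value of 20.4, a median of 27.0 and a highest value of 43.9 CPM. Of the wt libraries, 4 lay at or near the top of the whole range and wt 2 lay near its bottom, so the groups overlapped.

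Dsp encodes desmoplakin, the protein that ties desmosomes to intermediate filaments. It was at 89.4, 105, 106, 64.5 and 70.4 CPM in the wt HIP, and at 67.9 to 122 CPM with a median of 84.3 CPM in the Ts66Yah HIP. The highest Dsp level was found in Ts66Yah 1, the library with the lowest C1ql2 level, and wt 4 and wt 5, the libraries with the highest C1ql2, had Dsp at 64.5 and 70.4 CPM.

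Lct, the gene of lactase, was at 64.4, 52.8, 70.2, 59.4 and 57.1 CPM in the wt HIP and at 42.3 to 65.0 CPM with a median of 58.0 CPM in the Ts66Yah HIP. Its lowest library was Ts66Yah 1 as well.

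The CA1 genes gave another pattern. Wfs1, which encodes the endoplasmic reticulum membrane protein wolframin, was at 173, 153, 217, 180.2 and 177 CPM in the wt HIP and ran from 146 to 270 CPM in the Ts66Yah HIP (median 189 CPM). Its highest value came from Ts66Yah 2. Fibcd1, a membrane protein with a fibrinogen-like domain, was at 167, 133, 157, 153 and 201 CPM in the wt HIP and at 121 to 184 CPM (median 160.0 CPM) in the Ts66Yah HIP. Its lowest value also came from Ts66Yah 2, so these CA1 genes moved in opposite directions in that library. Mpped1, a metallophosphoesterase domain protein, stayed between 205 and 232 CPM in the wt HIP and between 187 and 234 CPM in the Ts66Yah HIP.

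Amigo2, an adhesion molecule of CA2 pyramidal cells, was at 24.2, 26.6, 30.4, 23.3 and 27.2 CPM in the wt HIP and at 23.2 to 34.0 CPM (median 28.9 CPM) in the Ts66Yah HIP. For CA3, Bok, a member of the Bcl-2 family, was at 43.5, 44.2, 54.8, 57.4 and 62.9 CPM in the wt HIP and at 43.8 to 69.8 CPM (median 54.6 CPM) in the Ts66Yah HIP. Iyd, the iodotyrosine deiodinase, was at 7.34, 6.57, 6.90, 8.65 and 7.44 CPM in the wt HIP and at 4.36 to 7.81 CPM (median 6.97 CPM) in the Ts66Yah HIP. Ts66Yah 4 gave the lowest Iyd level, and the genotypes overlapped for each of these genes.

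**Figure D2:**
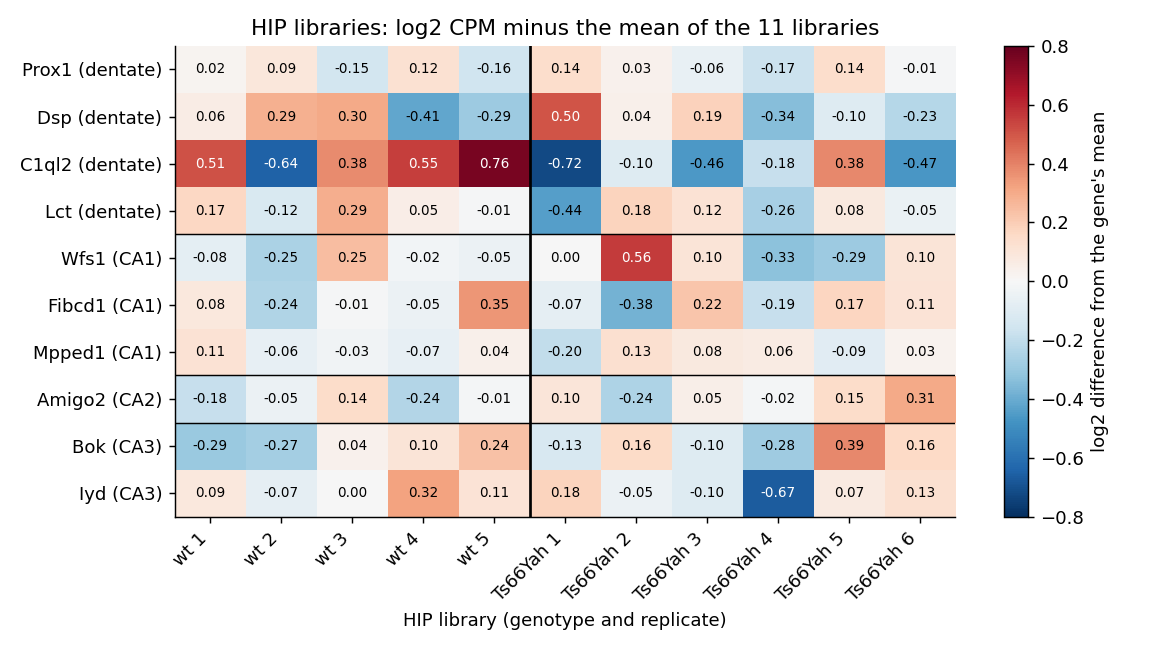
Log2 CPM of each gene in each of the 11 HIP libraries, minus the gene's mean over these libraries, with red above and blue below the mean and lines separating genotypes and subfields. In the columns of wt 4, wt 5 and Ts66Yah 1, Dsp and C1ql2 have opposite signs.

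No shared rise and fall of genes of one subfield was detected. Over the 45 pairs of the 10 genes, log2 CPM was correlated across the 11 HIP libraries after removing the genotype means. In a two-sided permutation test with Benjamini-Hochberg adjustment over the 45 pairs, 0 pairs passed, with a lowest adjusted p of 0.523, and 2 pairs had an unadjusted p under 0.05. Of the 10 pairs within a subfield, 5 had a positive Pearson r (median -0.04), beside 22 of the 35 pairs between subfields (median 0.12). Among the 6 pairs of dentate genes 2 were positive (median r = -0.12), and among the 4 pairs of CA1 or CA3 genes 3 were (median r = 0.18), from -0.23 for Wfs1 with Fibcd1 to 0.55 for Bok with Iyd. Dsp and C1ql2 had the most negative r of all pairs (r = -0.59, Spearman's rho = -0.61, permutation p = 0.0548 and 0.0517, adjusted p = 0.523 and 0.561), and r was -0.50 without the 2 libraries farthest from the median of Dsp. C1ql2 and Lct had r = 0.49 (rho = 0.28, permutation p = 0.132 and 0.403, adjusted p = 0.658 and 0.945), which became 0.32 without the 2 farthest libraries. The CA3 genes Bok and Iyd had r = 0.55 (rho = 0.56, permutation p = 0.0648 and 0.0763, adjusted p = 0.523 and 0.561) and 0.32 without the 2 farthest libraries. The pairs under an unadjusted p of 0.05 joined different subfields, Prox1 with Iyd (r = 0.64, rho = 0.63, permutation p = 0.0217 and 0.0438) and C1ql2 with Bok (r = 0.63, rho = 0.56, permutation p = 0.0358 and 0.0774). Without the 2 farthest libraries their r was 0.48 and 0.41. With the genotype means of each range of animal numbers removed, over 10 libraries without wt 1, 0 of the 45 pairs passed as well (lowest adjusted permutation p = 0.200), and 9 had an unadjusted p under 0.05, all of them between subfields. Here r was -0.26 for Dsp with C1ql2, 0.63 for C1ql2 with Lct, 0.37 for Bok with Iyd, 0.65 for Prox1 with Iyd and 0.68 for C1ql2 with Bok. For Dsp with C1ql2, rho was 0.08 with these means removed, and r became 0.31 without the 2 farthest libraries. The sign of this relation thus depended on the measure once the ranges were taken into account. In the higher range alone, with 6 libraries, r of this pair was -0.75 (permutation p = 0.0889 over all orders, adjusted p = 0.571 over the 45 pairs). Range groups of 2 libraries hold mirrored values once their mean is removed, yet these permutations treated all values as interchangeable. The permutation p-values with range means removed may thus be too small. The 9 pairs under 0.05 cannot be set against the 2 pairs found without this step.

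The subfield balance of a library was summarised as the mean log2 CPM of the dentate genes minus that of the CA1 or CA3 genes. The dentate minus CA1 balance was -1.31, -1.37, -1.33, -1.34 and -1.50 in the wt HIP and ran from -1.73 to -1.26 in the Ts66Yah HIP. The wt libraries averaged -1.37 ± 0.08 (SD, n = 5) and the Ts66Yah libraries -1.54 ± 0.16 (SD, n = 6). The groups overlapped, with -0.17 between their means on the log2 scale. Most of this difference was that of C1ql2, and with Prox1, Dsp and Lct alone it was -0.03. Over all 11 libraries, Ts66Yah 5 had the highest dentate minus CA1 balance and Ts66Yah 6 the lowest, although both animals were in the lower range of numbers.

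For dentate minus CA3 the wt libraries averaged 1.85 ± 0.18 (SD, n = 5) and the Ts66Yah libraries 1.74 ± 0.19 (SD, n = 6), and the CA1 minus CA3 balance was 3.22 ± 0.15 (SD, n = 5) and 3.27 ± 0.23 (SD, n = 6). Both overlapped between genotypes, and without C1ql2 the genotypes differed by 0.02 for dentate minus CA3. In the lower range of animal numbers, with 2 libraries a genotype, the differences of Ts66Yah from wt were -0.15, -0.35 and -0.20 for dentate minus CA1, dentate minus CA3 and CA1 minus CA3. In the higher range, with 2 wt and 4 Ts66Yah libraries, they were -0.14, 0.14 and 0.28. The balances that involve CA3 thus had different signs in the lower and the higher range. No test was made of these scores.

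The genes whose levels were most like the dentate minus CA1 balance are given as a description. Among 14996 genes that averaged 1 CPM or more in the HIP, the 5 with the highest Pearson r to the dentate minus CA1 balance over the 11 libraries, with genotype means removed, were 1700034H15Rik (r = 0.91), Lmnb1 (0.89), Pgm2 (0.88), Aldh16a1 (0.88) and Rpl7 (0.87). The 5 lowest were Myom3 (r = -0.90), AU022252 (-0.86), Rars2 (-0.85), Pcdh10 (-0.85) and AC151284.1 (-0.84). These are the extremes of many genes over 11 libraries and were not tested.

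The second question was whether genotype changed the subfield markers. In the HIP, 0 of the 10 genes passed edgeR's quasi-likelihood test at an adjusted p under 0.05, where 0.591% of the 18452 genes tested were called. At an unadjusted p under 0.05 there was 1 of the 10 genes, beside 11.9% of all genes, and DESeq2 and limma voom called 0 as well. The median log2 fold change of the 10 genes was 0.01, with 6 above and 4 below 0, beside 0.00 over all genes. No gene had groups without overlap, beside 1.87% of all genes.

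The gene with the unadjusted p was C1ql2, at 43.9 ± 13.4 CPM in wt (SD, n = 5) and 29.0 ± 8.29 CPM in Ts66Yah (SD, n = 6). Its log2 fold change was -0.60 (SE 0.22, 95% interval -1.07 to -0.12), with an unadjusted edgeR p of 0.0176 and an adjusted p of 0.302 (0.0562 to 0.496 over the alternatives tried). Within the higher range of animal numbers the means were 53.2 CPM in 2 wt and 26.4 CPM in 4 Ts66Yah libraries. Within the lower range they were 32.6 CPM in wt and 34.1 CPM in Ts66Yah, with 2 libraries each. The genotypes were thus apart in the higher range and close together in the lower one.

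The other dentate genes had narrower intervals around 0. The log2 fold change was 0.03 for Prox1 (95% interval -0.12 to 0.18), 0.02 for Dsp (-0.32 to 0.36) and -0.13 for Lct (-0.36 to 0.10). For Dsp this value hid opposite ratios within the ranges, with a Ts66Yah to wt ratio of 0.728 in the lower range of animal numbers and of 1.39 in the higher range. Among the CA genes the log2 fold changes lay between -0.14 (Iyd, 95% interval -0.43 to 0.14) and 0.13 (Amigo2, -0.07 to 0.32). Some of these genes also had opposite ratios in the lower and the higher range of animal numbers, with Ts66Yah to wt ratios of 1.31 and 0.839 for Bok, 1.10 and 0.786 for Iyd, and 0.934 and 1.11 for Wfs1. The means of Fibcd1 were 145 CPM in wt and 174 CPM in Ts66Yah in the lower range, and 177 and 148 CPM in the higher range. The narrowest interval was that of Mpped1, from -0.12 to 0.13 around 0.01, which corresponds to 0.919-fold to 1.10-fold.

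Further markers of the same subfields, 21 genes from a list, gave the same count. In the HIP 0 of these 21 genes passed the test, beside 0.591% of all genes. At an unadjusted p under 0.05 there was 1 of them, beside 11.9% of all genes. This was Plk5, a member of the polo-like kinase family, chosen for mention after its value was seen. It was at 23.3, 20.9, 23.4, 22.9 and 20.3 CPM in the wt HIP and at 12.8 to 21.4 CPM in the Ts66Yah HIP, where Ts66Yah 5 alone reached the wt range. Its log2 fold change was -0.43 (SE 0.12) with an edgeR adjusted p of 0.154, and in the EC it was -0.51 (SE 0.16) with an adjusted p of 0.514. Of the 3 genes of mossy cells of the dentate hilus, 0 passed, with log2 fold changes of 0.56 for Calb2, -0.44 for Csf2rb2 and -0.11 for Ajap1. Of the list of choroid plexus genes, which a hippocampal dissection can take along, Ttr was at 80.2 CPM in wt 4 and at 713 to 3107 CPM in the other 10 HIP libraries. All 7 genes of neocortical layers had a log2 fold change below 0 in the Ts66Yah HIP, and 0 passed. These genes ran from -0.37 for Fezf2 (SE 0.08, edgeR adjusted p = 0.0729) to -0.03 for Lamp5, with a median of -0.09 beside 0.00 over all genes. Their summed level was 262 to 285 CPM in the wt HIP and 215 to 278 CPM in the Ts66Yah HIP. Of the 5 thalamus genes 0 passed (median -0.06), and Slc17a6, the vesicular glutamate transporter VGLUT2, was at -0.51 (SE 0.16, edgeR adjusted p = 0.232). The part of such tissue in the levels of the 10 genes was not tested.

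**Figure D3:**
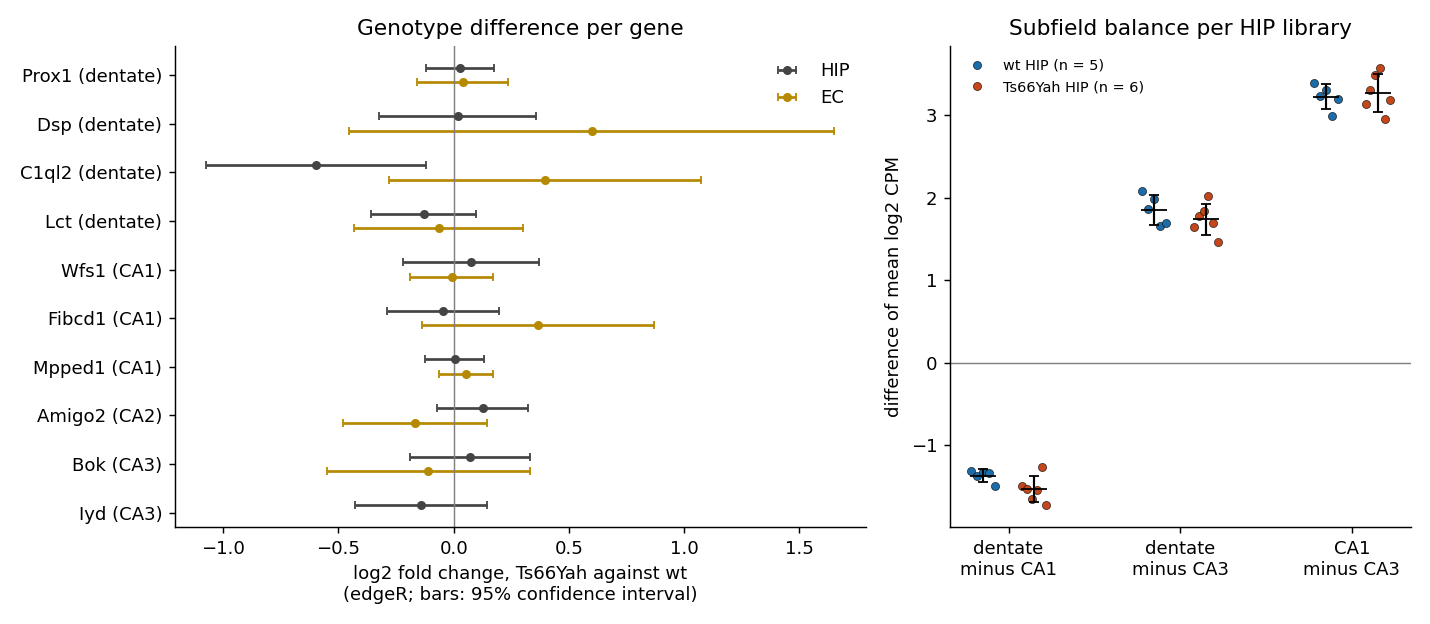
Left, log2 fold change of Ts66Yah against wt per gene with its 95% confidence interval, in the HIP and in the EC (Iyd was too low to be tested in the EC). Right, balance of mean log2 CPM between subfields in each HIP library, with the mean and SD per genotype. The interval of C1ql2 in the HIP is the only one of the 19 that does not include 0.

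In the EC, 9 of the 10 genes were tested, since Iyd fell under the filter on low counts, and 0 were called, where 0.283% of 17658 genes were. At an unadjusted p under 0.05 the count was 0 as well (6.25% of all genes), and DESeq2 and limma voom called none. Log2 fold changes ran from -0.17 (Amigo2) to 0.60 (Dsp, SE 0.49), with adjusted p-values of 0.905 or more. The interval of Dsp was wide, from -0.46 to 1.65, with 6 to 82 counts in an EC library and a fitted biological coefficient of variation of 54.3%. For Lct, with 31 to 75 counts, the interval was -0.43 to 0.30 and the coefficient 16.8%. The part of the low counts in the width for Dsp was not tested. The change of C1ql2 was 0.40 (95% interval -0.28 to 1.07) in the EC and -0.60 in the HIP. In the edgeR test of this difference, C1ql2 had an interaction of 0.97 (SE 0.42) with an adjusted p of 1.0. None of the 10 genes passed, and neither did any of the 19074 genes tested (0.0%), of which 2.03% had an unadjusted p under 0.05. C1ql2 was the only 1 of the 10 with such an unadjusted p. Within the ranges of animal numbers the EC levels of Dsp went opposite ways, with a Ts66Yah to wt ratio of 0.375 in the lower and of 4.44 in the higher range, as they did in the HIP.

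The third question was how far the subfield markers separate the regions. In wt animals, all 10 genes passed the test between the EC and the HIP, as did 47.7% of the 17935 genes tested. Lower in the EC were 8 of the 10, beside 24.3% of all genes, and higher were 2, beside 23.4%. The groups did not overlap for 9 of the 10, beside 35.4% of all genes. In Ts66Yah animals the counts were the same, 8 lower and 2 higher, where 54.0% of 18043 genes were called, 27.5% lower and 26.4% higher, and 9 of the 10 had no overlap beside 32.2%. The median log2 fold change of the 10 genes was -3.42 in wt and -3.21 in Ts66Yah, while that of all genes was 0.01 in both.

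The largest fall was that of the dentate gene Dsp in both genotypes. It went from 87.0 ± 19.1 CPM in the wt HIP to 0.719 ± 0.445 CPM in the wt EC (SD, n = 5 each), which is -6.87 on the log2 scale (SE 0.31, adjusted p = 3.74e-09 by edgeR). Its EC values were 0.638, 1.02, 1.29, 0.461 and 0.176 CPM in wt, and 0.350 to 2.25 CPM in Ts66Yah. On the log2 scale C1ql2 fell by 5.72 (SE 0.31) and Lct fell by 5.34 (SE 0.12) in wt. Prox1, which cortical interneurons also express, fell by 3.35 (SE 0.10), to 11.1, 13.7, 9.87, 12.5 and 10.7 CPM in the wt EC.

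In Ts66Yah animals the values for the dentate genes were -6.29 (Dsp), -4.76 (C1ql2), -5.28 (Lct) and -3.35 (Prox1). Each EC level was then expressed as a percent of the mean HIP level of its genotype. The 4 genes did not share 1 ratio. In wt, Prox1 remained at 9.78 ± 1.27%, Lct at 2.45 ± 0.392%, C1ql2 at 1.85 ± 0.739% and Dsp at 0.826 ± 0.511% (SD, n = 5). In Ts66Yah the same genes were at 9.86 ± 0.592%, 2.56 ± 0.458%, 3.75 ± 1.38% and 1.23 ± 0.785% (SD, n = 6). Averaged over the 4 genes, the EC libraries held 3.26% to 4.60% of the HIP level, with a mean of 3.73 ± 0.416% (SD, n = 5) in wt and of 4.35 ± 0.329% (SD, n = 6) in Ts66Yah. The divisors differ between genotypes, for C1ql2 a HIP mean of 43.9 CPM in wt and 29.0 CPM in Ts66Yah. Its EC means were 0.814 and 1.09 CPM. The percents thus do not compare EC levels between genotypes directly. Prox1 had the highest share of the 4 genes in both genotypes.

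Of the CA1 genes only Fibcd1 separated the regions downwards, from 162 ± 24.9 CPM in the wt HIP to 14.4 ± 2.32 CPM in the wt EC (SD, n = 5 each), which is -3.49 on the log2 scale (SE 0.13, adjusted p = 9.27e-10 by edgeR). Mpped1 was higher in the EC, at 324, 321, 342, 319 and 355 CPM in wt and 323 to 371 CPM in Ts66Yah, with a log2 fold change of 0.63 (SE 0.06) in wt and 0.67 (SE 0.06) in Ts66Yah. Wfs1 was higher as well, with 217, 203, 249, 244 and 293 CPM in the wt EC, but its groups overlapped. Its difference was 0.43 on the log2 scale (SE 0.11, adjusted p = 0.00504 by edgeR) in wt and 0.33 (SE 0.12, adjusted p = 0.0276) in Ts66Yah. In Ts66Yah the call for Wfs1 was lost without animal 1, 3, 4 or 5, with adjusted p-values of 0.0602, 0.0700, 0.0978 and 0.0777. Wfs1 and Mpped1, named as markers of CA1, were thus not lower in the EC than in the HIP.

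Amigo2 fell by 2.20 (SE 0.12) in wt and fell by 2.50 (SE 0.12) in Ts66Yah on the log2 scale, to 4.89 to 7.23 CPM in the wt EC. For CA3, Iyd fell by 5.44 (SE 0.19) in wt and fell by 5.80 (SE 0.24) in Ts66Yah, and rested on 1 to 9 counts per EC library. Bok fell by 0.98 (SE 0.17, adjusted p = 0.000322 by edgeR) and fell by 1.17 (SE 0.17, adjusted p = 4.46e-05), the smallest decrease of the 8. It was at 19.1, 27.1, 32.6, 20.1 and 33.9 CPM in the wt EC, and its regions did not overlap in either genotype.

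**Figure D4:**
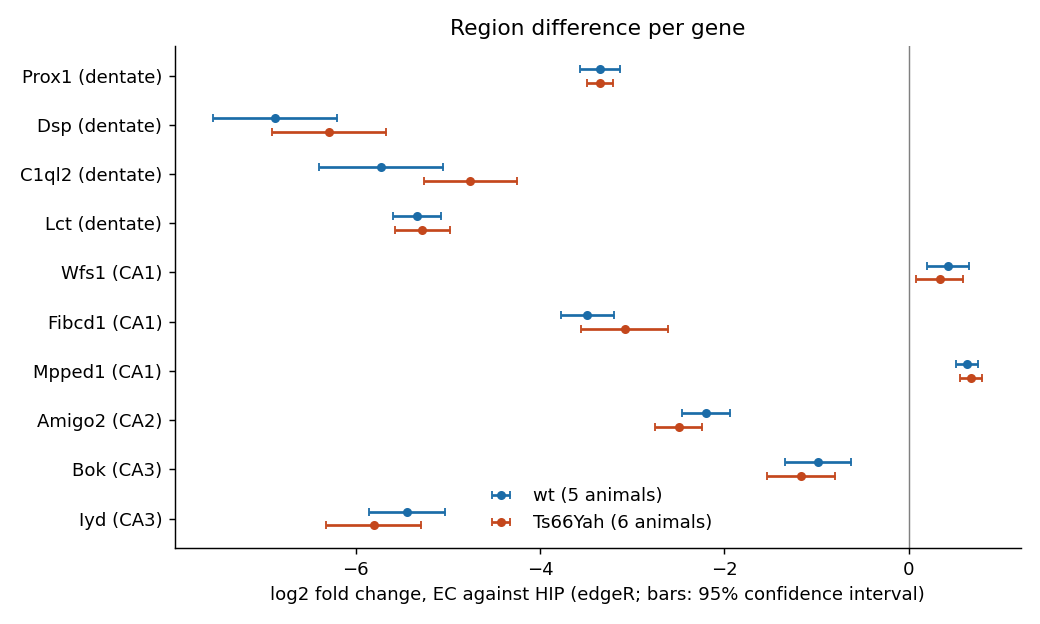
Log2 fold change of the EC against the HIP per gene with its 95% confidence interval, in wt and in Ts66Yah animals. The dentate genes and Iyd lie at -3.35 or below, and Wfs1 and Mpped1 lie above 0.

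Of the 21 further subfield markers, 9 were lower and 4 higher in the EC in both genotypes, 7 passed in neither, and Trpc6 was called in Ts66Yah animals alone. Over all genes, 24.3% were called lower and 23.4% higher in the EC in wt, and 27.5% and 26.4% in Ts66Yah. Among the dentate markers, Tdo2, the tryptophan dioxygenase, fell by 3.24 (SE 0.22) on the log2 scale in wt and Glis3 fell by 1.15 (SE 0.12) in Ts66Yah. Plk5, Stxbp6 and Pdzd2 were not called. Among those higher in the EC were the CA3 marker Coch (log2 fold change 2.86 in wt), the CA1 marker Ccn3 (1.54) and the CA2 marker Ccdc3 (0.83). Lower in wt were the CA3 markers Npy2r (log2 fold change -2.85) and Cdh24 (-1.71), the CA1 markers Pou3f1 (-2.74) and Man1a (-0.98), and the CA2 markers Map3k15 (-1.63), Strip2 (-1.35) and Rgs14 (-0.77). Genes of other lists were called between the regions as well, beside 47.7% of all genes in wt and 54.0% in Ts66Yah. In both genotypes 5 of 5 oligodendrocyte genes (median log2 fold change -2.04 in wt) and 5 of 5 choroid plexus genes (-5.26) were lower in the EC, and 5 of 7 genes of neocortical layers were higher (1.65). Of the striatum genes 4 of 5 were higher in wt (median 1.45) and 3 of 5 in Ts66Yah (0.90), and of 5 genes common to neurons 4 were higher in wt (0.31) and 3 in Ts66Yah (0.28). The thalamus genes gave 2 of 5 lower in wt, and 1 lower and 1 higher in Ts66Yah. The summed oligodendrocyte level was 7009 to 10175 CPM in the HIP and 1371 to 3386 CPM in the EC, and the part of these cells and tissues in the region differences, those of Wfs1 and Mpped1 included, was not tested.

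Within the EC, the libraries Ts66Yah 2 and Ts66Yah 4 stood apart in the CA1 gene Fibcd1. It was at 29.9 and 27.1 CPM in them and at 11.5 to 17.5 CPM in the other 9 EC libraries, a pattern noticed after the values were seen. Mpped1 was also above the other 9 in both (371 and 356 against 319 to 355 CPM), and Amigo2 below them (3.99 and 4.08 against 4.89 to 7.23 CPM). Among all 17658 genes tested in the EC, 2.67% lay above and 2.90% below the other 9 in both libraries. Prox1 was at 11.1 and 11.9 CPM, Dsp at 0.845 and 1.12 CPM and Lct at 1.18 and 1.41 CPM in them, inside the range of the other libraries. C1ql2 was at 1.72 CPM in Ts66Yah 2, the highest of the 11 EC libraries, and at 0.680 CPM in Ts66Yah 4. None of the 4 dentate genes thus lay outside the other 9 in both libraries.

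Among the further markers, Ccn3, Man1a, Dcn, Cacng5 and Necab2 were above the other 9 EC libraries in both, and those below them included Pdzd2 and Coch. Ccn3, a secreted matricellular protein, was at 386 and 392 CPM against 199 to 356 CPM. Of the genes of neocortical layers Rorb, a layer 4 marker, was at 33.6 and 28.9 CPM against 40.0 to 59.5 CPM, and Lamp5 at 195 and 171 CPM against 209 to 388 CPM. Their part in the Fibcd1 level was not tested. In the HIP of the same animals Fibcd1 was not high, at 121 and 139 CPM.

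Without these animals, the log2 fold change of Fibcd1 between genotypes in the EC went from 0.36 (SE 0.23) to -0.09, and its interaction from 0.41 to -0.15. The EC value of Bok went from -0.11 to 0.07. No call changed, since none of the 10 genes was called with or without them. In the HIP, Fibcd1 went from -0.05 to 0.07 and Mpped1 from 0.01 to -0.04.

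**Figure D5:**
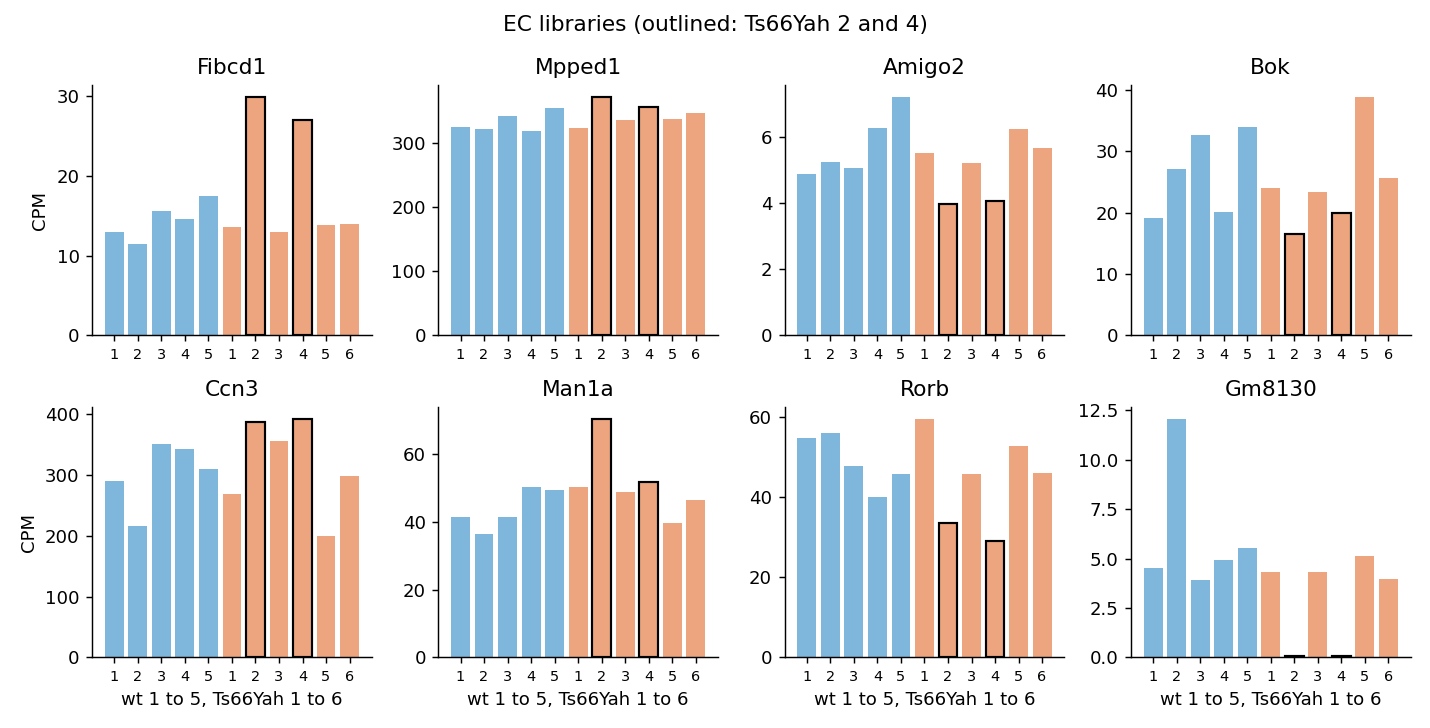
Level in CPM of 4 of the subfield genes, the CA1 markers Ccn3 and Man1a, the cortical layer gene Rorb and the pseudogene Gm8130 in the 11 EC libraries, with wt in blue, Ts66Yah in orange and Ts66Yah 2 and 4 outlined. These libraries are the highest for Fibcd1, Mpped1, Ccn3 and Man1a, the lowest for Amigo2 and Rorb, and near 0 for Gm8130.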

How the data were processed

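RNA-Seq counts were taken from the HIP and EC of 5 wt and 6 Ts66Yah mice. According to the study's methods, the authors aligned single-end reads with Hisat2 to GRCm38, counted them with HTSeq-count on the Ensembl annotation (release 99), and deposited a table of raw counts. The versions and the strand setting are not given in the sources used here. The labels describe poly(A) selection, the methods also a ribosomal depletion kit. The authors' tables of DESeq2 and FCROS comparisons (fold changes and p-values) were not used. Symbols and coordinates came from GENCODE M21, and 55144 of 55385 identifiers matched. Without a known strand setting, counts of Prox1, Dsp and Amigo2 cannot be told apart from those of the genes that overlap their exons on the opposite strand (Prox1os, Gm10129, Pced1b).

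edgeR 4.0.16 (R 4.3.3) was used with filterByExpr, TMM factors and the quasi-likelihood test, with Benjamini-Hochberg adjustment across every gene tested. The fits were tested on simulated data. Log2 CPM for balances and correlations used a prior count of 2, and permutation tests 100000 resamples. All 10 genes were named, with genes of other lists where they passed the threshold, the 5 genes at each end of the likeness to the dentate minus CA1 balance, and some picked later, as the text says. The genes and lists were chosen with earlier results of these data known. Within a region, libraries are separate animals, so the genotype tests weigh a difference against the spread between animals. The ranges of animal numbers are not part of the main fit and enter only in an alternative. The region and interaction tests hold both libraries of an animal and treat them as independent, except in the alternative with the animal as a block. Alternatives were DESeq2 1.42.0, limma 3.58.1 voom, RLE factors, 2 filters, other samples in the fit, blocks and left-out animals. HIP and EC libraries of the same animal, paired by the animal number in the labels, deviated together, with correlations of 0.21 to 0.45 in every pair. The values of 1 further marker are not reported here.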

Additional observations from a re-analysis of the deposited data

How the results depend on the processing

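Leaving out 1 animal at a time, the genotype difference ran from -0.22 to -0.13 for the dentate minus CA1 balance, from -0.18 to -0.06 for dentate minus CA3, and from -0.01 to 0.11 for CA1 minus CA3. Without C1ql2 among the dentate genes, an alternative chosen after seeing the data, the first went from -0.17 to -0.032 and the second from -0.12 to 0.02. With all 4 dentate genes, dentate minus CA3 also turned its sign between the ranges of animal numbers (-0.35 and 0.14). With the median over genes the first and the second were -0.09 and -0.01. The genotype tests called 0 of the 10 genes under each alternative run, and the wt region test called 10. The Ts66Yah region test called 9 to 10 genes when 1 animal was left out, the exception being Wfs1. With the animal as a replicate block, where HIP and EC of an animal were paired, and with the replicate number as a block, no call changed. Same-numbered wt and Ts66Yah animals share a number only (correlations of -0.01 to 0.06 in the HIP and 0.02 to 0.18 in the EC). Under this replicate block the genotype log2 fold changes of Lct and Wfs1 in the EC became 0.0062 and 0.021, and that of Mpped1 in the HIP -0.0017. With limma voom, Wfs1 in the EC was at 0.00064. Without both Ts66Yah 2 and Ts66Yah 4, an alternative chosen after seeing the data, the sign also turned for Bok (0.066) and Fibcd1 (-0.089) in the EC, for Fibcd1 (0.073) and Mpped1 (-0.040) in the HIP, and for the interactions of Fibcd1 (-0.15) and Prox1 (-0.00091). When 1 animal was left out at a time, the sign turned for genotype values that lay close to 0. In the EC these were Prox1 (-0.0048 to 0.10), Lct (-0.12 to 0.024) and Wfs1 (-0.064 to 0.069). In the HIP they were Prox1 (-0.0068 to 0.064), Dsp (-0.096 to 0.099), Wfs1 (-0.050 to 0.15), Fibcd1 (-0.11 to 0.041), Mpped1 (-0.020 to 0.044) and Bok (-0.0057 to 0.14). Among the interactions they were Prox1 (-0.023 to 0.057), Lct (-0.055 to 0.17) and Wfs1 (-0.17 to 0.031). C1ql2 in the HIP stayed between -0.77 and -0.48. None of these values was called, and the cause of these turns was not tested. An EC library held 6 to 82 counts of Dsp, 12 to 51 of C1ql2, 31 to 75 of Lct and 1 to 9 of Iyd. The part of depth in their EC values was not tested.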

Other observations

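Values of further genes were looked up in the animals whose EC libraries stood apart. Among 14052 genes with at least 1 CPM in each of the other 9 HIP libraries, 4 were below 10% of the lowest of these libraries in both Ts66Yah 2 and Ts66Yah 4, and among 13752 such genes in the EC there were 3, all of them among the 4. These processed pseudogenes were chosen after their values were seen. Gm8130 (chromosome 16) was at 0.132 and 0.168 CPM in the HIP of these animals against 2.91 to 11.0 CPM in the other 9, and at 0.0676 and 0.0523 CPM in the EC against 3.93 to 12.1 CPM. Rps15a-ps8 (chromosome 4) and Gm26983 (chromosome 1) gave the same picture in both regions, and Gm14131 (chromosome 2) in the HIP. No gene was near 0 in the other 9 libraries and at 1 CPM or more in both of these. Reads of processed pseudogenes can also come from their parent genes, and the counting of multi-mapping reads is not given in the sources used here.

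The level of a gene in the HIP and in the EC of the same animal was compared for the 10 genes, an analysis added after the data were seen. Over 11 animals, with genotype means removed, Dsp had r = 0.75 (Spearman's rho = 0.77, permutation p = 0.00891 and 0.0075, adjusted over the 10 genes 0.0891 and 0.075) and r = 0.72 without the 2 animals farthest from the median in the HIP. Mpped1 had r = 0.63 (rho = 0.67, permutation p = 0.0385 and 0.0278, adjusted p = 0.192 and 0.139), which became 0.43 without the 2 farthest animals. C1ql2 had r = -0.22 and Fibcd1 r = -0.46, with adjusted permutation p-values of 0.64 and 0.284. No gene passed the threshold after adjustment.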
